A study of Homo sapiens with 30 samples.

Results

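The 45 genes described here drive the entry of cells into S phase and copy the genome once they are there. They were taken from the count table by gene ID through their symbols, and each of the 45 matched 1 of its 33538 genes. By role they comprised 10 genes of origin licensing (ORC1, ORC6, CDC6, CDT1, MCM2, MCM3, MCM4, MCM5, MCM6 and MCM7), 8 of origin firing (MCM10, CDC45, CDC7, DBF4, GINS1, GINS2, GINS3 and GINS4) and 8 of the polymerases (POLA1, POLA2, PRIM1, PRIM2, POLD1, POLD3, POLE and POLE2). The others were 7 genes of the sliding clamp and Okazaki fragment joining (PCNA, RFC2, RFC3, RFC4, RFC5, FEN1 and LIG1), 4 of nucleotide supply (RRM1, RRM2, TYMS and TK1), 4 regulators of the G1/S switch (CCNE1, CCNE2, E2F1 and E2F2) and 4 of chromatin replication (CHAF1A, CHAF1B, UHRF1 and SLBP). Poly(A) RNA came from CHLA10, A673 and TC32, Ewing sarcoma cell lines whose genotype label is EWS::FLI1 throughout, a fusion that acts as a transcription factor. Cells were given 5 nM BMS-986158, a small-molecule inhibitor of the BET bromodomain proteins that bind acetylated chromatin, or the solvent DMSO as vehicle. The labels name 3 days (72 hours) in all 3 lines and 20 days in CHLA10 and A673, with 3 libraries in each of the 10 groups. CHLA10 was kept in IMDM and the other lines in RPMI, so line and medium cannot be told apart. For how long the 20-day vehicle cells were given vehicle is not stated. Whether the 3 libraries of a group stem from separate cultures is not stated, so their spread, on which the p-values rest, may be technical. In RNA from whole cultures, fewer cells in S phase and less RNA per cell cannot be told apart.

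In G1, the origin recognition complex with CDC6 and CDT1 loads the ring-shaped MCM helicase onto DNA, which licenses origins. At the G1/S transition, cyclin E with CDK2 inactivates the RB protein and frees the E2F transcription factors, whose targets include many genes of the replication machinery and E2F1 itself. CDC7 with DBF4 and the cyclin-dependent kinases then fire the origins by adding CDC45 and the GINS complex to the helicase, and polymerases alpha, delta and epsilon copy the strands on the PCNA clamp that the RFC complex loads. BET proteins help RNA polymerase II out of promoter pausing, and their inhibition is known to raise HEXIM1, which is used as a marker of drug action.

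E2F factors bind short GC-rich elements near the starts of many of these genes, so the 250 bases before the start were searched for TTTCCCGC, TTTGGCGC, TTTCGCGC and TTTGCCGC on both strands (RefSeq, GRCh38.p14). Matches can overlap. Of the 45 genes, 40 had a promoter in the table, and 15 of these (37.5%) held a match, beside 2.8% of 27303 promoters of the same length and 1 of 19 mitosis genes (5.3%). The following promoters, each of 160 bases ending at the base before the start and read 5′ to 3′ on the gene's strand, belong to genes whose values are described below. They are shown for the position of the matched element, which is in capitals. They lie at chr20:33686386-33686545 (E2F1, minus strand), chr1:23531234-23531393 (E2F2, minus), chr16:85688955-85689114 (GINS2, minus), chr20:5126623-5126782 (PCNA, minus), chr19:4909341-4909500 (UHRF1, plus) and chr2:135876444-135876603 (MCM6, minus).
E2F1: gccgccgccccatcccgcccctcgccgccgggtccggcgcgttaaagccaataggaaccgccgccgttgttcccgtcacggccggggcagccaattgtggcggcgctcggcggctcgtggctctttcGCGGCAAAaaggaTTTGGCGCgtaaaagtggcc
E2F2: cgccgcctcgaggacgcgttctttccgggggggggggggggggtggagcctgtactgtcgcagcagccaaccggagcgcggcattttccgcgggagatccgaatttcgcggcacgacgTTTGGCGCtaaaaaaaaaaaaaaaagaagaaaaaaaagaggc
GINS2: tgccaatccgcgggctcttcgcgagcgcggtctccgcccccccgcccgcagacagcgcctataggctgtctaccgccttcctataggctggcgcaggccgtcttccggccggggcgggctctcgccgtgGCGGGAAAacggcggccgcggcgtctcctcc
PCNA: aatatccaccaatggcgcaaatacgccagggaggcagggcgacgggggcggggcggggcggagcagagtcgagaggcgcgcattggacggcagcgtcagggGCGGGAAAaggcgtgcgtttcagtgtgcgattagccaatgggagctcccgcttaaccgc
UHRF1: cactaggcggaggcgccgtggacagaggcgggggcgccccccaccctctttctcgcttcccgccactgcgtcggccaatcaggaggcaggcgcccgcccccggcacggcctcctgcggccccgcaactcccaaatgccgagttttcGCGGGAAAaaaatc
MCM6: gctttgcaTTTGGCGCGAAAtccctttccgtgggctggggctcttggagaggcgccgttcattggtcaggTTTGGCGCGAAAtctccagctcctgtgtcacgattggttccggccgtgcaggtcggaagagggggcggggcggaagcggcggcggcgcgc
The nearest match began 20 bases before the start in E2F1, 42 in E2F2, 31 in GINS2, 59 in PCNA, 14 in UHRF1 and 90 in MCM6. E2F1 held 2 matches, and MCM6 held 2 stretches in which TTTGGCGC and GCGCGAAA overlap. CCAAT, in either direction, stood in 19 of the 40 promoters (47.5%), in 33.0% of all promoters and in 15 of 19 mitosis genes (78.9%). TTTGAA, an element known from promoters of mitosis genes, stood in 1 of the 40 (2.5%), in 13.6% of all promoters and in 10 of the 19 mitosis genes (52.6%). A match is a description of the letters only. The starts used can differ from the ends of the gene intervals given below. Among the promoters printed, those of UHRF1, GINS2, E2F1 and PCNA have starts inside the intervals. The E2F1 match nearest the start therefore lies largely within the interval given for that gene. CCNE2, GINS4, MCM4, MCM5 and POLD3 were not in the promoter table.

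Libraries held 16083677 to 48949739 counts, and 16713 genes passed the filter on low counts, among them all 45 members. Farthest from their groups stood 4 libraries, namely replicate 3 of A673 20-day treated, of A673 3-day vehicle and of both CHLA10 20-day groups. The SD of their log2 differences from the rest of the group was 0.738, 0.684, 0.642 (CHLA10 treated) and 0.573 (CHLA10 vehicle). No gap followed, as A673 20-day treated replicate 2 and TC32 vehicle replicate 1 stood at 0.569. Counts of called genes without these 4 are given beside those with them. HEXIM1 rose in each of the 5 treatment comparisons, by 1.06 in CHLA10, 1.05 in A673 and 0.98 in TC32 at 3 days, and by 0.66 in CHLA10 and 0.91 in A673 at 20 days (log2). Of 10 Ewing sarcoma markers (CD99 and NR0B1 among them), 10 passed 1 CPM (counts scaled to library size) in every library of A673, TC32 and CHLA10 vehicle, and 9 in treated CHLA10, where NKX2-2 stood at 0.0397 to 0.650 CPM. At 3 days their sum was lower in treated than in vehicle groups, at 4562 to 4840 against 5965 to 6039 CPM in CHLA10. It was 2779 to 2827 against 3654 to 3720 CPM in A673 and 5626 to 5721 against 7226 to 7439 CPM in TC32. A large part of the sum was CCND1, at 2288 to 2343 against 3474 to 3592 CPM in CHLA10 at 3 days. There 5 of the 10 markers were called lower, beside 15.7% of all tested genes, and 5 were not called. At 20 days the sums overlapped in CHLA10 (3325 to 5452 against 5316 to 6974 CPM) but not in A673 (2236 to 2467 against 3681 to 3821 CPM). Markers of other cells summed to 0.200 to 3.06 CPM for 5 epithelial, 3.59 to 20.7 CPM for 5 immune and 0.0533 to 10.5 CPM for 5 endothelial genes. Some of them moved with treatment. In A673 the endothelial sum was 5.13 to 7.16 CPM in vehicle and 6.93 to 10.4 CPM in treated cells at 3 days, with PECAM1 at 3.89, 4.99 and 2.64 against 0.0568, 0.199 and 0.0810 CPM and KDR at 2.77, 1.46 and 2.04 against 6.76, 9.24 and 10.3 CPM. The highest immune sum was that of CHLA10 20-day treated replicate 3, where CD68 was at 20.7 CPM, beside 6.18 and 8.32 CPM in replicates 1 and 2. The share of counts from 13 mitochondrially encoded genes was 5.31, 5.53 and 2.00% in A673 3-day vehicle and 2.83 to 4.82% in its treated group, and 2.99 to 3.64% and 3.82 to 4.74% in TC32. The part of these markers and of the mitochondrial share in the results was not tested.

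Levels of different genes were compared as CPM per kb of exon in 3-day vehicle cells (mean ± SD, n = 3). The length was that of all annotated exons of a gene merged, and the order depends on it. It was 1.471 kb for PCNA and 4.386 kb for MCM7. In CPM without this length, MCM7 (656.5 to 691.7) stood above PCNA (373.5 to 396.8) in CHLA10. Per kb, PCNA, the clamp that holds the polymerases on DNA, was the most abundant of the 45 in each line. It stood at 260.5 ± 8.23 in CHLA10, 213 ± 34.5 in A673 and 229 ± 10.6 in TC32. MCM7, a subunit of the helicase ring, came next at 153 ± 4.34, 174 ± 26.6 and 125 ± 2.82, and in A673 its spread overlapped that of PCNA. At the other end stood the cyclins E, the activators of CDK2, with GINS3 (3.17 in CHLA10) between them in that line. CCNE2 was lowest in each line, at 2.98 ± 0.422 in CHLA10, 0.971 ± 0.300 in A673 and 1.90 ± 0.334 in TC32 CPM per kb, and CCNE1 stood at 4.72 ± 0.429, 3.44 ± 0.203 and 3.56 ± 0.207. SLBP, which binds the stem-loop of histone mRNA, stood at 103 ± 2.32 in CHLA10, 33.5 ± 9.98 in A673 and 94.8 ± 2.33 in TC32. The lines themselves were not compared by a test. Together the 45 genes took 0.770 to 0.798% of all counts in CHLA10, 0.691 to 0.811% in A673 and 0.485 to 0.498% in TC32 under 3-day vehicle.

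**Figure D1:**
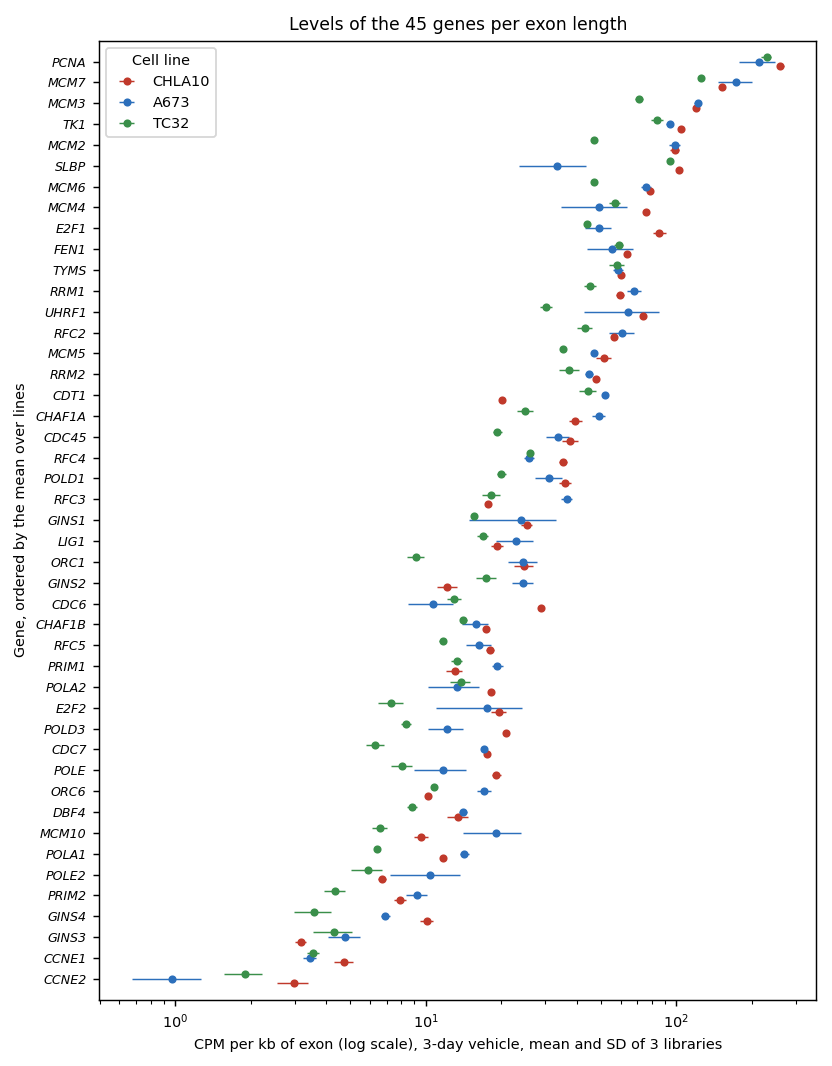
Mean level of each gene in 3-day vehicle cells, in CPM per kb of exon on a log axis, with SD over 3 libraries, one colour per line. PCNA stands at the top in each line, at 213 to 260.5, and CCNE2 at the bottom, at 0.971 to 2.98.

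After 3 days of BMS-986158 the replication genes were lower in CHLA10 and TC32, and in A673 most of them were not called. In CHLA10, 27 of 45 fell and 0 rose, where 15.7% of all tested genes were called lower and 14% higher. At an unadjusted p under 0.05 stood 34 of the 45, lower or higher, and DESeq2 also called 0 higher. The median log2 change of the 45 was -0.33, beside -0.01 for all tested genes. In TC32, 36 fell and 1 (POLE) rose, where the background was 22.8% and 22.3%, and the median was -0.69 beside -0.01. In A673, 8 fell and 3 rose, where the background was 18.4% lower and 15.3% higher, and the median was 0.01 beside -0.02. The 8 that fell in A673 are a share near the background, and the 3 that rose (CDC7, CCNE2 and SLBP) a smaller one. When each library of a comparison was left out in turn, 18 of the 27 calls in CHLA10, 34 of the 37 in TC32 and 7 of the 11 in A673 were made in every fit. Without the 4 distant libraries 34 fell and 1 rose in CHLA10, 7 fell and 16 rose in A673, and 36 fell and 1 rose in TC32. The count of 3 higher in A673 was 1 without 3-day vehicle replicate 1 and 9 without 3-day vehicle replicate 3, and the 1 higher in TC32 was 0 without any of 5 of its 6 libraries.

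In CHLA10 most replication genes were lower in 20-day than in 3-day vehicle cells, while in A673 39 of 45 were not called between the vehicle groups. In CHLA10, all 45 changes were negative and 38 genes fell, with 0 higher, where 7.06% of tested genes were called lower and 8.05% higher. At an unadjusted p under 0.05 stood 42 of the 45, and DESeq2 also called 0 higher. The median was -0.58 beside 0.05 for all genes, 31 of the 38 calls were made in every fit that left out 1 library, and 43 fell without the 4 distant libraries. In A673, 40 of 45 changes were positive, with a median of 0.25 beside -0.04, and 6 genes rose (ORC1, MCM4, MCM10, GINS1, CHAF1B and UHRF1), where 3.02% were called higher and 3.08% lower. In A673, 0 genes fell, 27 of the 45 stood at an unadjusted p under 0.05 in either direction, and DESeq2 called 8 higher and 0 lower. Of the 6 calls 0 were made in every fit that left out 1 library, and the count was 0 with a replicate block, with only the libraries of the contrast, and at adjusted p under 0.01. It was 0 without 3-day vehicle replicate 1, 0 without 3-day vehicle replicate 2, 0 without 20-day vehicle replicate 1, 23 without 3-day vehicle replicate 3 and 31 without the 4 distant libraries.

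The 20-day treatment comparisons share their vehicle libraries with the comparison of vehicle groups. In CHLA10, 22 of 45 genes were higher and 0 lower after 20 days of BMS-986158 than in 20-day vehicle, where 16.5% and 17.2% of tested genes were called, with a median of 0.29 beside -0.02. At an unadjusted p under 0.05 stood 26 of the 45, and DESeq2 called 21 higher and 0 lower. A fit of only the libraries of this contrast left 10 higher, without MCM6 among others. Leaving out 20-day vehicle replicate 1 left 10 higher, leaving out its replicate 2 left 12, 8 of the 22 calls were made in every such fit (MCM6, POLA1, POLD1, PCNA, RRM2, E2F1, CHAF1B and SLBP), and 30 rose without the 4 distant libraries. By deviations from group means, same-numbered libraries of this comparison correlated at 0.199, 0.15 and 0.361. Replicates 1 and 2 also correlated across numbers (0.113 and 0.152), so only the pairing of replicate 3 stood apart. With same-numbered libraries as a block 24 were higher, adding CDC6 (0.40, adjusted p = 0.0375) and MCM10 (0.35, adjusted p = 0.0303). In A673, 27 fell and 2 rose (TK1 and CCNE2), where 19.9% were called lower and 19.7% higher, with a median of -0.34 beside 0.00. Of these 29 calls, 21 were made in every fit that left out 1 library, and without the 4 distant libraries 28 fell and 6 rose. The 2 higher became 1 without treated replicate 1 or 2 or vehicle replicate 2 or 3.

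Treated cells of the 2 times were also set against each other, a comparison added after the data had been seen. In CHLA10, 0 of the 45 genes differed in either direction between 20 and 3 days of BMS-986158 in edgeR, DESeq2 and limma-voom, and 6 stood at an unadjusted p under 0.05. The median was 0.02 beside 0.01, where 3.89% of tested genes were called higher and 1.15% lower. Without the 4 distant libraries 2 (ORC6 and RRM2) were lower. In A673, TK1 was higher and MCM7, DBF4, POLA1 and LIG1 were lower after 20 days, where the background was 11.3% and 8.91% and the median -0.07 beside -0.00. Without the 4 distant libraries 6 were higher and 7 lower. The 1 higher became 5 without 20-day treated replicate 3 and 2 without 3-day treated replicate 1, and the 4 lower became 2 without 3-day treated replicate 1, 20-day treated replicate 1 or 20-day treated replicate 2.

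The median of the 45 log2 differences from the line's own 3-day vehicle mean gives 1 value per library. In CHLA10 it was -0.33, -0.34 and -0.35 in the 3 libraries treated for 3 days, -0.66, -0.62 and -0.43 in 20-day vehicle and -0.33, -0.27 and -0.35 in the 3 treated for 20 days. The treated libraries of both times lay between 3-day vehicle (-0.02, -0.01 and 0.04) and 20-day vehicle, and overlapped neither. A673 showed another order. Its values were -0.07, -0.04 and 0.10 in 3-day vehicle, 0.04, 0.03 and 0.04 after 3 days of drug, 0.39, 0.15 and 0.19 in 20-day vehicle and -0.05, -0.07 and -0.20 after 20 days of drug. The 20-day vehicle libraries lay above all others of the line, and the 20-day treated ones overlapped 3-day vehicle. In TC32 the treated libraries stood at -0.61, -0.62 and -0.77, below vehicle at -0.01, 0.00 and 0.00.

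**Figure D2:**
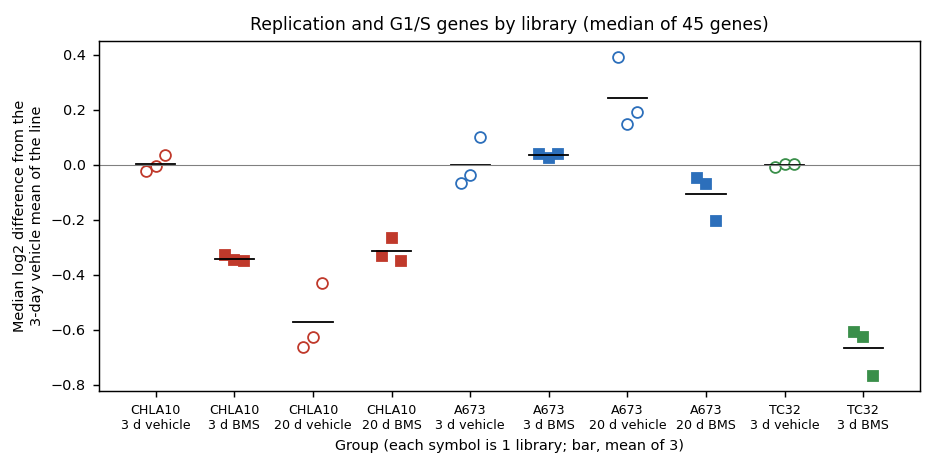
Each symbol is 1 library, at the median over 45 genes of the log2 difference from the mean of the line's 3-day vehicle libraries, and bars mark the mean of 3. CHLA10 20-day vehicle sits lowest of the CHLA10 groups (-0.66 to -0.43), and A673 20-day vehicle highest of all (0.15 to 0.39).

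**Figure D3:**
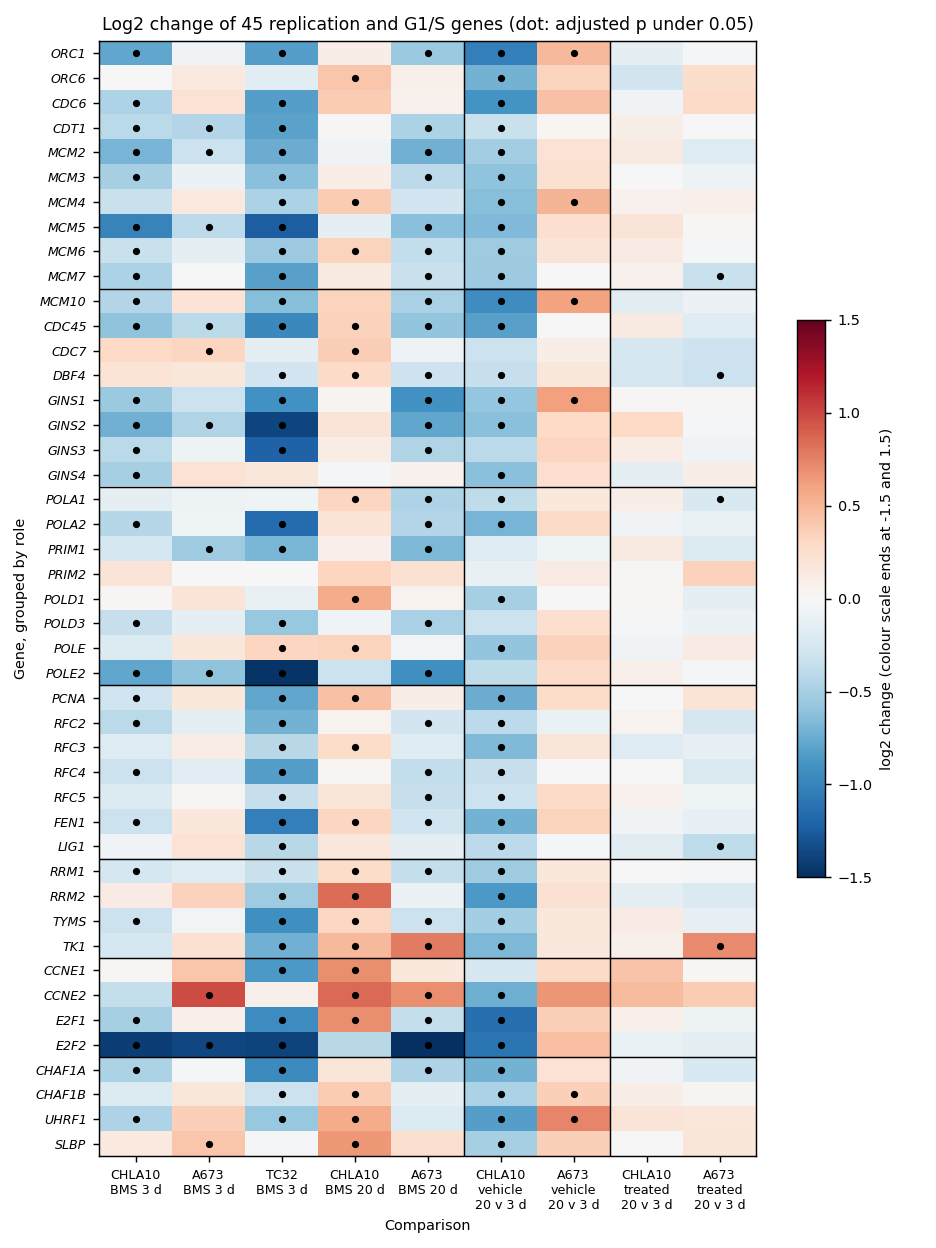
Log2 change of each of the 45 genes (rows, by role) in each comparison (columns), blue to red, with a dot where the adjusted p was under 0.05. The CHLA10 vehicle column is negative for all 45 genes, while its 20-day treatment column holds 22 dots, each for a higher gene.

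Whether the effect of the drug differed between times or lines was tested on the difference itself. In CHLA10 the 20-day effect was higher than the 3-day effect for 28 of 45 genes and lower for 0, where 3.35% and 2.97% of tested genes were called. The median difference was 0.60 beside -0.00, DESeq2 called 33 higher and 0 lower, and 39 stood at an unadjusted p under 0.05. The count of 28 was 15 without 20-day vehicle replicate 1, 13 without 20-day vehicle replicate 2 and 40 without the 4 distant libraries. In A673 the 20-day effect was lower for 5 (MCM2, MCM10, DBF4, POLA1 and CHAF1A) and higher for 0, where 2.93% and 4.33% were called, with a median of -0.31 beside 0.02. That count was 17 without 3-day vehicle replicate 3, 0 without 20-day vehicle replicate 1 and 1 to 3 without any 1 of 8 other libraries (all but 20-day treated replicate 3 and 20-day vehicle replicate 2), and 0 of the 5 were called in every such fit. The 0 higher became 1 without 20-day treated replicate 3 or 20-day vehicle replicate 1, and without the 4 distant libraries 24 were lower and 1 higher. DESeq2 called 6 lower and 0 higher, and 23 stood at an unadjusted p under 0.05.

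At 3 days the effect in A673 was higher than in CHLA10 for 12 genes and lower for 0, where 4.85% and 5.65% were called, with a median of 0.28 beside -0.00. The count was 5 to 7 without any 1 of 6 libraries (CHLA10 treated replicates 1 and 2, CHLA10 vehicle replicate 3, A673 treated replicate 3 and A673 vehicle replicates 1 and 2), 20 without A673 vehicle replicate 3 and 28 without the 4 distant libraries. The effect in TC32 was lower than in A673 for 31 and higher for 0, where 11.8% and 12.4% were called, with a median of -0.59 beside 0.04. Of those 31 calls, 27 were made in every fit that left out 1 library, and 38 were lower without the 4 distant ones. Against CHLA10, the effect in TC32 was lower for 13 and higher for 2 (GINS4 and POLE), where 6.47% and 7.34% were called, with a median of -0.31 beside 0.00. The 13 became 7 or 8 without any 1 of 9 of the 12 libraries, and 24 without the 4 distant ones, while the 2 became 1 without any 1 of 11 of the 12 libraries. At 20 days the effect in A673 was lower than in CHLA10 for 29 genes and higher for 0, where 10.5% and 11.4% were called. The median there was -0.54 beside 0.01, and 26 of the 29 calls were made in every fit that left out 1 library, with 1 higher without A673 treated replicate 3 and 37 lower without the 4 distant libraries. The 0 genes called in 1 direction in 3 of these differences (A673 against CHLA10 at 3 days, TC32 against A673, and A673 against CHLA10 at 20 days) were also 0 in DESeq2 and limma-voom, and 20, 37 and 38 of the 45 had an unadjusted p under 0.05 in either direction.

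Across the 5 treatment comparisons, which share no libraries, 7 genes fell in all 3 lines at 3 days (CDT1, MCM2, MCM5, CDC45, GINS2, POLE2 and E2F2), a pattern of 5.12% of all tested genes. The same 7 also fell in A673 at 20 days, and the share of all tested genes with that wider pattern was not counted. With PRIM1, 8 genes fell in A673 at both times, as did 11.8% of tested genes. In CHLA10 and TC32, 26 genes fell in both lines at 3 days, beside 9.44% of tested genes, and 17 of them did so in every fit that left out 1 library. In CHLA10, 8 genes (MCM6, CDC45, PCNA, FEN1, RRM1, TYMS, E2F1 and UHRF1) fell at 3 days and were higher than vehicle at 20 days, a pattern of 0.299% of tested genes. That 8 became 3 to 5 without any 1 of 9 CHLA10 libraries, namely the 6 of the 3-day groups, 20-day treated replicate 2 and 20-day vehicle replicates 1 and 2, and only MCM6 and E2F1 showed the pattern in every fit. At 20 days 8 genes fell in A673 and rose in CHLA10, as did 1.18% of tested genes, and this 8 became 3 without CHLA10 vehicle replicate 1 and 4 without CHLA10 vehicle replicate 2, CHLA10 treated replicate 2 or A673 vehicle replicate 1. Called in both directions somewhere among the 5 were 16 genes (MCM4, MCM6, CDC45, DBF4, POLA1, PCNA, RFC3, FEN1, RRM1, RRM2, TYMS, TK1, CCNE1, E2F1, CHAF1B and UHRF1), beside 10.1% of tested genes, and 8 or 9 without CHLA10 20-day vehicle replicate 1 or 2. Not called lower in any were 7 (ORC6, CDC7, PRIM2, POLD1, POLE, CCNE2 and SLBP), beside 55.4% of tested genes.

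**Figure D4:**
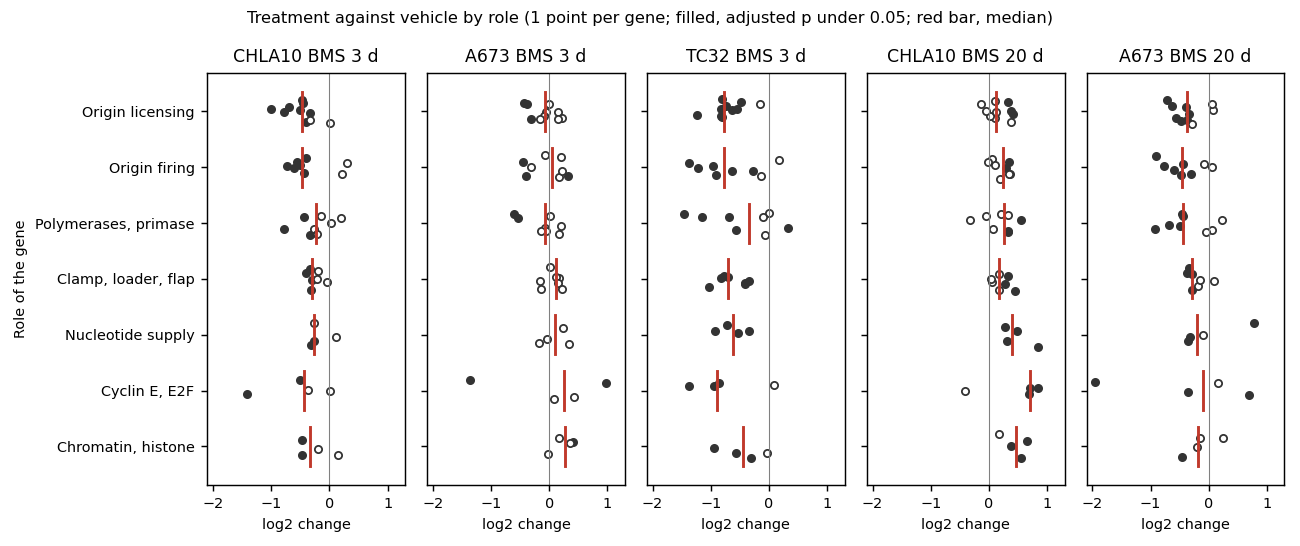
Log2 change of each gene by role in the 5 treatment comparisons, 1 point per gene, filled where the adjusted p was under 0.05, with the median as a red bar. Licensing genes have medians of -0.47 in CHLA10, -0.07 in A673 and -0.77 in TC32 at 3 days, and 0.11 in CHLA10 and -0.38 in A673 at 20 days.

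Counts by role, here and below, stand beside the following shares of all tested genes. At 3 days 15.7% were lower and 14% higher in CHLA10, 18.4% and 15.3% in A673, and 22.8% and 22.3% in TC32. At 20 days 17.2% were lower and 16.5% higher in CHLA10, and 19.9% and 19.7% in A673. Between CHLA10 vehicle groups 7.06% were lower. The roles were not tested against these shares. Of the 10 licensing genes, 8 fell in CHLA10, 3 in A673 and 9 in TC32 at 3 days. At 20 days 3 were higher in CHLA10 and 7 fell in A673, and all 10 were lower in 20-day than in 3-day CHLA10 vehicle. MCM5, a subunit of the MCM helicase ring (chr22:35400063-35425430, plus strand), had the largest mean change of the group. MCM5 was at 349.8, 382 and 399 CPM under 3-day vehicle, 176, 190.3 and 198 CPM after 3 days of BMS-986158, 219, 225 and 272 CPM under 20-day vehicle and 216, 225 and 206 CPM after 20 days of BMS-986158 in CHLA10. In A673 it was at 349.9, 343 and 336 CPM under 3-day vehicle, 248, 276 and 261 CPM after 3 days of BMS-986158, 470.4, 384 and 375 CPM under 20-day vehicle and 264, 264 and 266 CPM after 20 days of BMS-986158. TC32 libraries were at 258, 258 and 262 CPM under vehicle and 127, 102 and 101 CPM under BMS-986158. The treated libraries lay below vehicle without overlap in every comparison but CHLA10 at 20 days, where the groups overlapped. On the log2 scale MCM5 fell by 1.00 ± 0.10 (adjusted p = 1.23e-08) in CHLA10, fell by 0.39 ± 0.10 (adjusted p = 0.00244) in A673 and fell by 1.23 ± 0.10 (adjusted p = 2.62e-10) in TC32 at 3 days. At 20 days it fell by 0.63 ± 0.10 (adjusted p = 7.32e-06) in A673, and its change in CHLA10 was -0.14 ± 0.10 (adjusted p = 0.269). Between the vehicle groups of CHLA10, MCM5 fell by 0.66 ± 0.10 (adjusted p = 7.67e-05).

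MCM2, another subunit of the ring and the one that also carries histones through the fork, fell in the same comparisons as MCM5. In CHLA10 MCM2 stood at 464, 482 and 504 CPM under 3-day vehicle, 279.8, 305 and 307 CPM after 3 days of BMS-986158, 341, 329.8 and 343 CPM under 20-day vehicle and 336, 344 and 298 CPM after 20 days of BMS-986158. It fell by 0.70 ± 0.08 (adjusted p = 4.07e-07) at 3 days, and at 20 days the change was -0.05 ± 0.08 (adjusted p = 0.685), with overlapping groups. In A673 MCM2 was at 468, 471 and 511 CPM under 3-day vehicle, 372, 402 and 388 CPM after 3 days of BMS-986158, 621, 529 and 533 CPM under 20-day vehicle and 332, 306 and 380.1 CPM after 20 days of BMS-986158, with each treated group below its vehicle. It fell by 0.32 ± 0.08 (adjusted p = 0.00433) at 3 days and fell by 0.72 ± 0.08 (adjusted p = 1.26e-07) at 20 days, and the difference between those effects was -0.40 ± 0.12 (adjusted p = 0.0361). In TC32 it fell by 0.74 ± 0.09 (adjusted p = 1.02e-07), from 227, 239 and 226 CPM to 132, 146 and 134 CPM.

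CDC6, the loader of the helicase, was lowest in 20-day vehicle in CHLA10. Its CHLA10 levels were 163, 156 and 161 CPM under 3-day vehicle, 109, 108 and 132 CPM after 3 days of BMS-986158, 75.6, 78.6 and 104 CPM under 20-day vehicle and 106, 107 and 125 CPM after 20 days of BMS-986158. CDC6 fell by 0.89 ± 0.17 (adjusted p = 0.000929) between the vehicle groups, while the treatment change was -0.46 ± 0.17 (adjusted p = 0.0391) at 3 days and 0.39 ± 0.17 (adjusted p = 0.079) at 20 days. The 3-day call was lost in 5 of 6 fits that left out 1 library (adjusted p up to 0.137). In TC32, CDC6 fell by 0.82 ± 0.17 (adjusted p = 0.000339), from 67.8, 72.4 and 76.9 CPM to 39.6, 42.4 and 40.8 CPM without overlap. In A673 CDC6 was at 49.6, 55.8 and 73.2 CPM under 3-day vehicle, 71.6, 68.7 and 68.2 CPM after 3 days of BMS-986158, 95.1, 69.1 and 78.4 CPM under 20-day vehicle and 102, 98.2 and 53.8 CPM after 20 days of BMS-986158. Those groups overlapped at both times, and the changes of 0.22 and 0.06 did not pass the test. ORC6, a small subunit of the origin recognition complex, had the smallest changes of the group. ORC6 was at 43.7, 45.2 and 43.3 CPM in 3-day vehicle and 43.0, 39.7 and 50.2 CPM after 3 days of drug in CHLA10, which overlap, and at 24.0, 24.5 and 32.7 CPM in 20-day vehicle and 34.9, 37.0 and 36.6 CPM after 20 days of drug, which do not. ORC6 fell by 0.71 ± 0.13 (adjusted p = 0.000547) between the vehicle groups and rose by 0.42 ± 0.13 (adjusted p = 0.0105) with 20 days of treatment, a call lost in 2 of 6 fits that left out 1 library (adjusted p up to 0.0749). In A673 ORC6 was at 70.5, 71.9 and 79.2 CPM under 3-day vehicle, 76.4, 85.0 and 83.9 CPM after 3 days of BMS-986158, 107, 84.1 and 88.7 CPM under 20-day vehicle and 110.3, 109 and 75.7 CPM after 20 days of BMS-986158, with overlap at both times, and in TC32 at 47.7, 46.1 and 45.6 CPM under vehicle and 40.5, 41.5 and 42.5 CPM under BMS-986158, and none of these changes passed the test.

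Of the 8 firing genes, 6 fell in CHLA10, 2 fell and 1 (CDC7) rose in A673, and 6 fell in TC32 at 3 days. The A673 counts are near the shares of all tested genes, 18.4% lower and 15.3% higher. At 20 days 3 were higher in CHLA10 and 6 fell in A673. GINS2, a subunit of the GINS complex (chr16:85676198-85690073, minus strand), whose promoter is printed above, had the largest mean change. GINS2 was at 35.8, 40.8 and 42.8 CPM under 3-day vehicle, 23.3, 24.6 and 24.4 CPM after 3 days of BMS-986158, 25.3, 23.6 and 28.6 CPM under 20-day vehicle and 29.6, 28.4 and 30.7 CPM after 20 days of BMS-986158 in CHLA10. In A673 it was at 73.1, 77.7 and 88.0 CPM under 3-day vehicle, 63.4, 57.8 and 53.6 CPM after 3 days of BMS-986158, 107, 92.1 and 95.4 CPM under 20-day vehicle and 53.7, 58.2 and 59.9 CPM after 20 days of BMS-986158. In TC32 it was at 60.1, 51.1 and 59.9 CPM under vehicle and 25.7, 19.5 and 20.7 CPM under BMS-986158. Treated and vehicle libraries did not overlap at 3 days in any line, nor in A673 at 20 days. At 3 days GINS2 fell by 0.72 ± 0.11 (adjusted p = 1.05e-05) in CHLA10, fell by 0.45 ± 0.11 (adjusted p = 0.00151) in A673 and fell by 1.37 ± 0.11 (adjusted p = 2.73e-10) in TC32. At 20 days it fell by 0.78 ± 0.11 (adjusted p = 1.42e-06) in A673, where the groups of CHLA10 overlapped at 0.19 ± 0.11 (adjusted p = 0.177). The effect in TC32 was lower than in CHLA10, by a log2 difference of -0.65 ± 0.15 (adjusted p = 0.00559).

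GINS4, another subunit of the same complex, had other calls than GINS2, a difference that was not tested. GINS4 was at 56.6, 51.7 and 58.0 CPM in vehicle and 38.6, 35.9 and 43.1 CPM in treated CHLA10 cells at 3 days, where it fell by 0.50 ± 0.12 (adjusted p = 0.0015). In TC32 its vehicle libraries at 16.2, 22.9 and 19.8 CPM overlapped treated ones at 18.5, 23.2 and 24.9 CPM, with a change of 0.17 ± 0.12 (adjusted p = 0.253). At 20 days in CHLA10 GINS4 was at 34.7, 35.7 and 37.2 CPM in vehicle and 31.4, 38.1 and 37.1 CPM in treated cells, which overlap. In A673 it was at 36.9, 36.9 and 39.7 CPM under 3-day vehicle, 42.6, 47.1 and 42.8 CPM after 3 days of BMS-986158, 48.6, 41.5 and 44.9 CPM under 20-day vehicle and 48.8, 47.7 and 44.1 CPM after 20 days of BMS-986158, with no call at either time. The difference between the TC32 and CHLA10 effects was 0.67 ± 0.17 (adjusted p = 0.00789), and that between A673 and CHLA10 was 0.72 ± 0.16 (adjusted p = 0.0048). Of its exon bases, 21.2% overlap a gene on the other strand (AC009630.2), and with the strand setting of the counting unknown its values are uncertain. CDC45, which joins the helicase when an origin fires, fell by 0.61 ± 0.12 (adjusted p = 0.00035) in CHLA10 and fell by 0.96 ± 0.13 (adjusted p = 6.8e-07) in TC32 at 3 days. In A673 it fell by 0.40 ± 0.12 (adjusted p = 0.0111) at 3 days, with adjusted p = 0.0532 without 3-day vehicle replicate 2, and fell by 0.60 ± 0.12 (adjusted p = 0.00027) at 20 days. The kinase gene CDC7 was the one firing gene to rise in A673 at 3 days, at 0.32 ± 0.12 (adjusted p = 0.036), and that call was lost in 5 of 6 fits that left out 1 library (adjusted p up to 0.0904).

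Of the 8 polymerase genes, 3 fell in CHLA10, 2 in A673 and 4 in TC32 at 3 days, and POLE rose in TC32. In A673 the 2 of 8 are near the 18.4% of all tested genes called lower. At 20 days 3 were higher in CHLA10 and 5 fell in A673. POLE2, the second subunit of the leading-strand polymerase epsilon (chr14:49643555-49688422, minus strand), had the largest mean change. POLE2 was at 20.2, 20.1 and 19.0 CPM under 3-day vehicle, 12.9, 10.8 and 10.8 CPM after 3 days of BMS-986158, 13.7, 15.9 and 16.1 CPM under 20-day vehicle and 13.8, 12.5 and 10.2 CPM after 20 days of BMS-986158 in CHLA10. In A673 it was at 24.5, 26.2 and 41.9 CPM under 3-day vehicle, 21.7, 18.9 and 20.3 CPM after 3 days of BMS-986158, 39.4, 36.4 and 37.3 CPM under 20-day vehicle and 18.0, 20.2 and 21.7 CPM after 20 days of BMS-986158, where 3-day vehicle replicate 3 stood far above replicates 1 and 2. In TC32 it was at 20.1, 15.3 and 16.7 CPM under vehicle and 6.97, 5.40 and 6.45 CPM under BMS-986158. Treated libraries were below vehicle without overlap at 3 days in all lines and in A673 at 20 days. At 3 days POLE2 fell by 0.78 ± 0.16 (adjusted p = 0.00057) in CHLA10, fell by 0.61 ± 0.16 (adjusted p = 0.00396) in A673 and fell by 1.47 ± 0.17 (adjusted p = 1.26e-07) in TC32. The A673 call was lost without 3-day vehicle replicate 3 (adjusted p = 0.0822), and at 20 days POLE2 fell by 0.92 ± 0.16 (adjusted p = 4.17e-05). POLE, the catalytic subunit of the same enzyme, went another way in TC32, from 145, 137 and 119.6 CPM to 167, 162 and 172 CPM. It rose by 0.32 ± 0.13 (adjusted p = 0.0422), a call lost in 5 of 6 fits that left out 1 library (adjusted p up to 0.179).

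The primase pair also differed in their calls. PRIM1, the catalytic primase subunit, was at 47.3, 49.6 and 44.6 CPM in 3-day vehicle and 35.8, 31.5 and 30.6 CPM in treated A673 cells, where it fell by 0.53 ± 0.11 (adjusted p = 0.000284). It fell by 0.68 ± 0.11 (adjusted p = 1.07e-05) in A673 at 20 days and fell by 0.69 ± 0.11 (adjusted p = 9.15e-06) in TC32. PRIM2, the regulatory subunit, had the smallest changes of the polymerase genes. PRIM2 was at 40.9, 40.4 and 48.1 CPM and 48.9, 39.6 and 41.9 CPM in the same groups of A673, and at 21.7, 21.2 and 18.0 CPM and 19.9, 19.8 and 21.5 CPM in TC32, with overlap in both lines. In CHLA10 PRIM2 was at 34.5, 38.7 and 37.6 CPM under 3-day vehicle, 36.8 to 45.5 CPM after 3 days of BMS-986158, 30.4, 32.3 and 39.7 CPM under 20-day vehicle and 42.3, 40.9 and 45.1 CPM after 20 days of BMS-986158, and in A673 at 20 days at 49.0, 42.5 and 49.1 CPM in vehicle and 60.2, 63.5 and 41.1 CPM in treated cells. Its 5 treatment changes ran from 0.00 to 0.33, and none passed the test. The difference between PRIM1 and PRIM2 itself was not tested.

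Of the 7 clamp and fragment-joining genes, 4 fell in CHLA10, 0 changed in A673 and 7 fell in TC32 at 3 days. In A673 at 3 days 1 of the 7 had an unadjusted p under 0.05. At 20 days 3 were higher in CHLA10 and 4 fell in A673. PCNA (chr20:5114953-5126626, minus strand) was at 379, 374 and 397 CPM under 3-day vehicle, 312, 312 and 314 CPM after 3 days of BMS-986158, 217, 210.3 and 260.3 CPM under 20-day vehicle and 324, 312 and 299 CPM after 20 days of BMS-986158 in CHLA10. In A673 PCNA was at 277, 294 and 372 CPM under 3-day vehicle, 393, 340.2 and 320.0 CPM after 3 days of BMS-986158, 416, 360.3 and 361 CPM under 20-day vehicle and 437, 426 and 349.8 CPM after 20 days of BMS-986158. In TC32 it was at 343, 319.6 and 349 CPM under vehicle and 221, 186 and 184 CPM under BMS-986158. TC32 and CHLA10 treated libraries lay below 3-day vehicle, those of A673 overlapped vehicle at both times, and CHLA10 20-day treated libraries overlapped the 3-day treated ones and lay above 20-day vehicle. PCNA fell by 0.78 ± 0.11 (adjusted p = 2.44e-06) in TC32. In CHLA10 it fell by 0.74 ± 0.11 (adjusted p = 8.77e-05) between the vehicle groups and rose by 0.44 ± 0.11 (adjusted p = 0.00243) with treatment at 20 days. The 3-day change in CHLA10 was -0.29 ± 0.11 (adjusted p = 0.0436), a call lost in 6 of 6 fits that left out 1 library (adjusted p up to 0.131). PCNA has 3 annotated pseudogenes, none of them in the count table.

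FEN1, the nuclease that trims Okazaki fragments, had the largest mean change of this group, led by TC32. There it went from 143, 142 and 153 CPM to 83.5, 66.5 and 65.4 CPM and fell by 1.02 ± 0.11 (adjusted p = 6.32e-08). In CHLA10 FEN1 was at 154, 159.7 and 161 CPM in 3-day vehicle, 126, 125 and 127 CPM after 3 days of drug, 88.9, 87.8 and 114 CPM in 20-day vehicle and 125, 122 and 116 CPM after 20 days of drug. A673 FEN1 levels were 117, 126 and 170.5 CPM under 3-day vehicle, 149, 155 and 157 CPM after 3 days of BMS-986158, 191, 165 and 165 CPM under 20-day vehicle and 143, 140.0 and 142 CPM after 20 days of BMS-986158. Its CHLA10 changes of -0.33 at 3 days and 0.32 at 20 days and its A673 change of -0.29 at 20 days passed the test. Each of those 3 calls was lost in some fits that left out 1 library (adjusted p up to 0.0782, 0.139 and 0.173). LIG1, the ligase that seals the fragments, fell by 0.41 ± 0.10 (adjusted p = 0.000985) in TC32, from 112, 116 and 105 CPM to 83.7, 81.4 and 85.4 CPM. In CHLA10 at 3 days its groups overlapped, at 119.5, 133 and 129 CPM and 129, 121 and 119 CPM. At 20 days CHLA10 LIG1 was at 87.2, 95.4 and 109 CPM in vehicle and 111, 112 and 105 CPM in treated cells, which overlap too. A673 vehicle stood at 163, 168 and 121 CPM at 3 days and 149.7, 144 and 152 CPM at 20 days. Treated A673 cells had less LIG1 at 20 days (129, 137 and 137 CPM) than at 3 days (162, 178 and 185 CPM), a change of -0.38 ± 0.10 (adjusted p = 0.00539).

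Of the 4 nucleotide supply genes, 2 fell in CHLA10, 0 changed in A673 and 4 fell in TC32 at 3 days, and 1 of the 4 had an unadjusted p under 0.05 in A673. At 20 days all 4 were higher in CHLA10, and in A673 2 fell and TK1 rose. TK1, thymidine kinase of the salvage pathway (chr17:78174075-78187233, minus strand), was at 172, 182 and 172 CPM under 3-day vehicle, 205, 204 and 208 CPM after 3 days of BMS-986158, 233, 178 and 177 CPM under 20-day vehicle and 375, 399 and 238 CPM after 20 days of BMS-986158 in A673. In CHLA10 TK1 was at 191, 193 and 199 CPM under 3-day vehicle, 162, 171 and 153 CPM after 3 days of BMS-986158, 109.7, 105 and 151 CPM under 20-day vehicle and 161, 185 and 167 CPM after 20 days of BMS-986158. TK1 in TC32 stood at 165, 148 and 157 CPM under vehicle and 108, 93.8 and 84.0 CPM under BMS-986158. TK1 thus moved in opposite directions, high in A673 after 20 days of drug, most so in replicates 1 and 2, and low in treated TC32. It rose by 0.78 ± 0.14 (adjusted p = 7.33e-05) in A673 at 20 days, called in every fit that left out 1 library, and rose by 0.71 ± 0.14 (adjusted p = 0.000794) there between 3 and 20 days of treatment. In TC32 TK1 fell by 0.72 ± 0.14 (adjusted p = 0.000208). In CHLA10 it fell by 0.67 ± 0.14 (adjusted p = 0.00232) between the vehicle groups and rose by 0.49 ± 0.14 (adjusted p = 0.00931) with 20 days of treatment, a call lost in 2 of 6 fits that left out 1 library (adjusted p up to 0.0723).

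RRM2, the small subunit of ribonucleotide reductase, which makes deoxynucleotides in S phase, had the largest called 20-day increase in CHLA10 among the genes called in every fit. RRM2 was at 257, 251 and 258 CPM under 3-day vehicle, 297, 269 and 268 CPM after 3 days of BMS-986158, 118, 129.5 and 174 CPM under 20-day vehicle and 200.1, 232 and 322 CPM after 20 days of BMS-986158 there. The treated libraries of 20 days spread widely and lay above 20-day vehicle. RRM2 rose by 0.84 ± 0.15 (adjusted p = 0.00012) with treatment and fell by 0.86 ± 0.15 (adjusted p = 0.000557) between the vehicle groups. In TC32 it fell by 0.54 ± 0.15 (adjusted p = 0.00551), from 191, 186 and 219.8 CPM to 136, 148 and 127 CPM. In A673 RRM2 was at 229, 246 and 239.6 CPM under 3-day vehicle, 310.4, 296 and 303 CPM after 3 days of BMS-986158, 327, 245 and 264 CPM under 20-day vehicle and 299, 291 and 194 CPM after 20 days of BMS-986158. There the 20-day groups overlapped, the 3-day groups did not, and the changes of 0.35 and -0.09 did not pass the test. RRM2 shares 20.2% of its exon bases with AC007240.1 on the same strand and has 3 pseudogenes, so its counts are uncertain. RRM1, the large subunit of the reductase, fell by 0.34 ± 0.09 (adjusted p = 0.00419) in TC32, from 179, 199 and 190.5 CPM to 137, 163 and 149 CPM, and fell by 0.36 ± 0.09 (adjusted p = 0.00277) in A673 at 20 days. The A673 levels were 271, 276 and 306 CPM under 3-day vehicle, 265, 245 and 240.2 CPM after 3 days of BMS-986158, 340.4, 301 and 311 CPM under 20-day vehicle and 272, 264 and 206 CPM after 20 days of BMS-986158. In CHLA10 RRM1 was at 250.3, 240.0 and 257 CPM in 3-day vehicle and 211, 205 and 204 CPM after drug, a change of -0.27 ± 0.09 (adjusted p = 0.03) that was lost in 5 of 6 fits that left out 1 library (adjusted p up to 0.105). At 20 days RRM1 went from 160.5, 167 and 189.8 CPM to 198, 213 and 214 CPM there, a change of 0.27 ± 0.09 (adjusted p = 0.0238), lost in 4 of 6 such fits (adjusted p up to 0.119). TYMS overlaps ENOSF1 on the other strand over 39.1% of its exon bases, and its counts are uncertain for the same reason as those of GINS4.

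The 4 regulators of the G1/S switch did not change alike. At 3 days 2 fell in CHLA10 (E2F1 and E2F2), 1 fell (E2F2) and 1 rose (CCNE2) in A673, and 3 fell in TC32 (CCNE1, E2F1 and E2F2). E2F2, an activating E2F factor (chr1:23506430-23531220, minus strand), had the largest mean change of all 45 genes. In CHLA10 E2F2 was at 100, 106 and 115 CPM under 3-day vehicle, 33.2, 39.5 and 48.0 CPM after 3 days of BMS-986158, 49.6, 45.5 and 54.8 CPM under 20-day vehicle and 40.5, 41.2 and 30.5 CPM after 20 days of BMS-986158. In A673 it was at 70.5, 80.5 and 137 CPM under 3-day vehicle, 33.8, 40.4 and 37.7 CPM after 3 days of BMS-986158, 142, 128 and 124 CPM under 20-day vehicle and 36.3, 28.3 and 37.0 CPM after 20 days of BMS-986158. In TC32 it was at 37.5, 45.2 and 37.0 CPM under vehicle and 18.5, 13.2 and 14.2 CPM under BMS-986158. Every treated group lay below its vehicle group without overlap, and in A673 3-day vehicle replicate 3 stood far above replicates 1 and 2. At 3 days E2F2 fell by 1.41 ± 0.18 (adjusted p = 1.78e-06) in CHLA10, fell by 1.37 ± 0.18 (adjusted p = 2.63e-06) in A673 and fell by 1.38 ± 0.19 (adjusted p = 2e-06) in TC32. In A673 at 20 days it fell by 1.95 ± 0.19 (adjusted p = 6.3e-09). In CHLA10 at 20 days the change was -0.42 ± 0.18 (adjusted p = 0.0808), against a vehicle group in which E2F2 fell by 1.10 ± 0.18 (adjusted p = 0.000311) from 3-day vehicle.

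E2F1, the first described E2F factor (chr20:33675683-33686404, minus strand), separated CHLA10 from A673. In CHLA10 E2F1 was at 201, 216 and 227 CPM under 3-day vehicle, 134, 155 and 166 CPM after 3 days of BMS-986158, 82.3, 87.6 and 125 CPM under 20-day vehicle and 156, 151 and 173 CPM after 20 days of BMS-986158. A673 libraries were at 106, 127 and 135 CPM under 3-day vehicle, 117, 137 and 135 CPM after 3 days of BMS-986158, 174, 154 and 143 CPM under 20-day vehicle and 128, 114 and 127 CPM after 20 days of BMS-986158. E2F1 in TC32 stood at 112, 111 and 108 CPM under vehicle and 65.9, 50.3 and 54.9 CPM under BMS-986158. The 6 treated CHLA10 libraries lay together, below 3-day and above 20-day vehicle. E2F1 fell by 0.50 ± 0.13 (adjusted p = 0.00336) in CHLA10 at 3 days, fell by 1.13 ± 0.13 (adjusted p = 4.35e-06) between the vehicle groups and rose by 0.70 ± 0.13 (adjusted p = 9.27e-05) with treatment at 20 days. The difference of the 20-day from the 3-day effect was 1.20 ± 0.18 (adjusted p = 0.000416). In TC32 E2F1 fell by 0.95 ± 0.13 (adjusted p = 1.23e-06). In A673 the 3-day groups overlapped, with a change of 0.08 ± 0.13 (adjusted p = 0.671), and the 20-day change was -0.35 ± 0.13 (adjusted p = 0.0274), a call lost without treated replicate 2 or vehicle replicate 1 (adjusted p up to 0.138).

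Of the cyclin E genes, CCNE1 was lower in TC32 and higher in CHLA10 at 20 days, as E2F1 was. CCNE2 was called higher in A673 at both times, where E2F2 was called lower. Differences between these genes were not tested. CCNE2, with few counts, was at 3.30, 3.74 and 5.77 CPM under 3-day vehicle, 9.61, 8.61 and 7.41 CPM after 3 days of BMS-986158, 8.28, 5.65 and 6.59 CPM under 20-day vehicle and 12.8, 13.4 and 7.17 CPM after 20 days of BMS-986158 in A673. In CHLA10 CCNE2 was at 11.0, 13.7 and 14.6 CPM under 3-day vehicle, 9.14, 9.40 and 12.1 CPM after 3 days of BMS-986158, 6.10, 8.83 and 8.71 CPM under 20-day vehicle and 12.8, 12.8 and 16.8 CPM after 20 days of BMS-986158. In A673 at 3 days the treated libraries stood above vehicle without overlap, and CCNE2 rose by 0.98 ± 0.25 (adjusted p = 0.00329), called in every fit that left out 1 library. In CHLA10 at 20 days it rose by 0.84 ± 0.24 (adjusted p = 0.00799), with adjusted p = 0.0618 without 20-day vehicle replicate 1, and in A673 at 20 days the change was 0.70 ± 0.24 (adjusted p = 0.0235), lost in 4 of 6 such fits (adjusted p up to 0.124). In TC32 CCNE2 was at 7.76, 10.0 and 7.26 CPM under vehicle and 6.32, 10.1 and 10.1 CPM under BMS-986158, which overlap. CCNE2 overlaps INTS8 on the other strand over 37.0% of its exon bases, so its counts are uncertain. CCNE1, the other E cyclin, fell by 0.86 ± 0.21 (adjusted p = 0.0015) in TC32, from 9.10, 8.54 and 9.59 CPM to 4.59, 5.25 and 5.17 CPM. In CHLA10 it was at 12.7, 10.8 and 12.7 CPM and 10.7, 13.7 and 12.1 CPM at 3 days, which overlap, and at 8.87, 8.92 and 12.5 CPM in vehicle and 13.2, 14.9 and 20.9 CPM in treated cells at 20 days. There it rose by 0.70 ± 0.20 (adjusted p = 0.0076), with adjusted p = 0.0859 without treated replicate 3. In A673 CCNE1 was at 8.24, 8.82 and 9.28 CPM under 3-day vehicle, 12.1, 11.6 and 11.6 CPM after 3 days of BMS-986158, 13.0, 11.0 and 8.14 CPM under 20-day vehicle and 14.0, 13.8 and 8.19 CPM after 20 days of BMS-986158, and neither change passed the test.

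**Figure D5:**
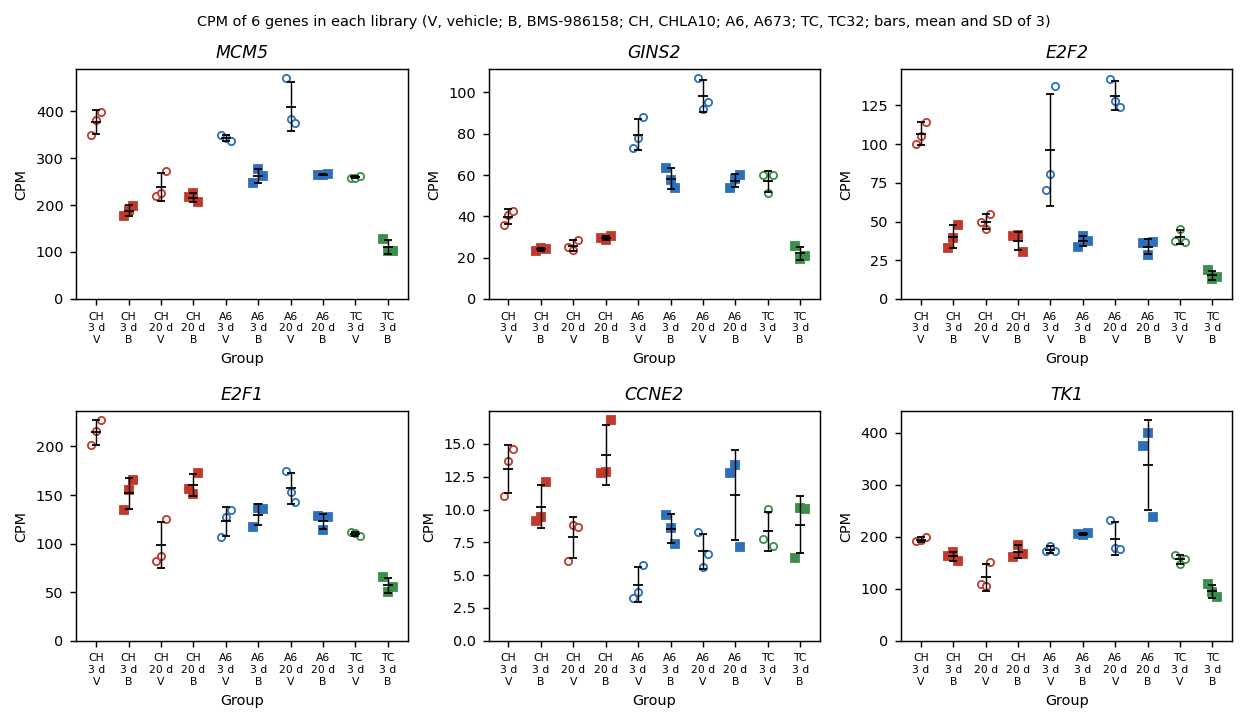
CPM of MCM5, GINS2, E2F2, E2F1, CCNE2 and TK1 in each of the 30 libraries by group (open circles, vehicle; filled squares, BMS-986158), with mean and SD of 3. E2F2 lies below vehicle in all 5 treated groups, and TK1 reaches 375 and 399 CPM in 2 of the 3 A673 libraries treated for 20 days.

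Of the 4 chromatin replication genes, 2 fell in CHLA10, 0 fell and 1 (SLBP) rose in A673 (2 of the 4 at an unadjusted p under 0.05), and 3 fell in TC32 at 3 days. At 20 days 3 were higher in CHLA10 and 1 (CHAF1A) fell in A673. UHRF1, which reads hemimethylated DNA and brings the maintenance methyltransferase to the fork (chr19:4903080-4962154, plus strand), was at 256, 278 and 455 CPM under 3-day vehicle, 408, 418 and 437 CPM after 3 days of BMS-986158, 654, 492 and 493 CPM under 20-day vehicle and 491, 486 and 441 CPM after 20 days of BMS-986158 in A673. In CHLA10 UHRF1 was at 374, 376 and 389 CPM under 3-day vehicle, 257, 279.9 and 288 CPM after 3 days of BMS-986158, 175, 178 and 289 CPM under 20-day vehicle and 308, 318 and 317 CPM after 20 days of BMS-986158. In both lines replicate 3 of 1 vehicle group stood far from its fellows, in A673 at 3 days and in CHLA10 at 20 days. UHRF1 fell by 0.56 ± 0.17 (adjusted p = 0.0073) in TC32, from 148, 166 and 154 CPM to 94.2, 111 and 111 CPM, and fell by 0.83 ± 0.17 (adjusted p = 0.00155) between the vehicle groups of CHLA10. Its other CHLA10 calls were -0.46 at 3 days and 0.55 at 20 days, lost in 6 of 6 and 2 of 6 fits that left out 1 library (adjusted p up to 0.126 and 0.0834). The A673 vehicle change of 0.73 ± 0.17 (adjusted p = 0.0147) was lost in 3 of 6 such fits (adjusted p up to 0.172).

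CHAF1B, a subunit of the histone chaperone that rebuilds nucleosomes behind the fork, had the smallest changes of this group. In CHLA10 CHAF1B was at 87.9, 87.5 and 92.4 CPM under 3-day vehicle, 78.6, 75.7 and 78.7 CPM after 3 days of BMS-986158, 59.3, 63.8 and 70.2 CPM under 20-day vehicle and 73.9, 88.1 and 88.6 CPM after 20 days of BMS-986158. It fell by 0.47 ± 0.09 (adjusted p = 0.0013) between the vehicle groups and rose by 0.38 ± 0.09 (adjusted p = 0.00253) with 20 days of treatment. In TC32 it fell by 0.32 ± 0.09 (adjusted p = 0.00717), from 74.6, 72.2 and 70.4 CPM to 64.5, 53.2 and 56.8 CPM, with adjusted p = 0.0592 without treated replicate 2. In A673 it was at 72.3, 80.2 and 91.7 CPM under 3-day vehicle, 91.6, 94.6 and 89.1 CPM after 3 days of BMS-986158, 114, 97.2 and 102 CPM under 20-day vehicle and 93.3, 98.0 and 91.5 CPM after 20 days of BMS-986158, with overlap at both times. SLBP was at 209, 204 and 213 CPM under 3-day vehicle, 227, 221 and 244 CPM after 3 days of BMS-986158, 136, 140.2 and 166 CPM under 20-day vehicle and 226, 235 and 232 CPM after 20 days of BMS-986158 in CHLA10. It fell by 0.50 ± 0.13 (adjusted p = 0.00741) between the vehicle groups, with adjusted p = 0.0555 without 20-day vehicle replicate 1, and rose by 0.65 ± 0.13 (adjusted p = 0.00021) with treatment at 20 days. In A673 at 3 days SLBP was at 51.9, 61.2 and 90.7 CPM in vehicle and 95.2, 90.2 and 86.5 CPM in treated cells, with overlap through vehicle replicate 3. That change was 0.41 ± 0.13 (adjusted p = 0.0129), lost in 2 of 6 fits that left out 1 library (adjusted p up to 0.126). At 20 days A673 SLBP was at 101, 81.5 and 79.2 CPM in vehicle and 107, 103 and 98.3 CPM in treated cells, which overlap. In TC32 the groups overlapped, at 197, 191 and 188 CPM and 204, 176 and 184 CPM.

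Calls were also counted for genes with and without an E2F-type match in the promoter searched, which was that of 1 start for each gene. In CHLA10 at 3 days, 11 of the 15 with a match and 13 of the 25 without fell, with medians of -0.40 and -0.27. In TC32, 13 of 15 and 20 of 25 fell, with medians of -0.78 and -0.71. In 20-day against 3-day CHLA10 vehicle, 15 of 15 and 19 of 25 fell, with medians of -0.60 and -0.50. In A673 at 20 days, 10 of 15 and 15 of 25 fell, with medians of -0.35 and -0.31. In CHLA10 at 20 days, 8 of 15 and 12 of 25 rose, with medians of 0.28 and 0.32. In A673 at 3 days, 3 of 15 and 4 of 25 fell, near the 18.4% of all tested genes, and 0 and 2 rose, beside 15.3%. Between A673 vehicle groups 1 of 15 and 4 of 25 rose, beside 3.02%, with medians of 0.23 and 0.23. Of all tested genes, 15.7% were lower in CHLA10 and 22.8% in TC32 at 3 days. Lower were 7.06% between CHLA10 vehicle groups and 19.9% in A673 at 20 days, and 16.5% were higher in CHLA10 at 20 days. The differences between the 2 sets were not tested.

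Other genes of the same pathway were counted from lists chosen with earlier results of these data known. For the same comparisons, 15.7% of all tested genes were lower and 14% higher in CHLA10, 18.4% and 15.3% in A673 and 22.8% and 22.3% in TC32 at 3 days, and 17.2% and 16.5% in CHLA10 and 19.9% and 19.7% in A673 at 20 days. Of 30 further genes of the replisome and its control, 2 rose and 4 fell in CHLA10, 8 rose and 2 fell in A673, and 3 rose and 8 fell in TC32 at 3 days. At 20 days 10 rose and 2 fell in CHLA10, and 5 rose and 7 fell in A673. POLE4, a small subunit of polymerase epsilon, rose in CHLA10 and A673 at both times, by 0.84 ± 0.14 (adjusted p = 4.98e-05) and 1.42 ± 0.14 (adjusted p = 1.79e-08) in CHLA10 and by 1.08 ± 0.14 (adjusted p = 1.91e-06) and 1.06 ± 0.14 (adjusted p = 9.93e-07) in A673. TIPIN, which steadies the stalled fork, fell by 0.89 ± 0.14 (adjusted p = 8.51e-06) in A673 at 20 days. RPA2, of the complex that coats single-stranded DNA, fell by 0.81 ± 0.11 (adjusted p = 8.26e-07) in TC32, and GMNN, the inhibitor of CDT1, fell by 0.75 ± 0.16 (adjusted p = 0.000277) there. In CHLA10 vehicle 14 of the 30 fell and 1 rose between 3 and 20 days, where 7.06% of all tested genes were lower and 8.05% higher.

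Of 10 further genes of nucleotide metabolism, 2 rose and 4 fell in CHLA10, 2 rose and 1 fell in A673, and 2 rose and 3 fell in TC32 at 3 days. At 20 days 2 rose in CHLA10 and 3 rose and 2 fell in A673. SAMHD1, an enzyme that degrades deoxynucleotides, rose by 1.15 ± 0.15 (adjusted p = 1.44e-06) in A673 at 3 days, rose by 1.36 ± 0.15 (adjusted p = 5.05e-08) in A673 at 20 days and rose by 1.26 ± 0.15 (adjusted p = 3.35e-07) in CHLA10 at 20 days. RRM2B, the reductase subunit used outside S phase, rose by 0.97 ± 0.15 (adjusted p = 1e-05) in A673 at 20 days. In TC32, NME1, a nucleoside diphosphate kinase, fell by 1.48 ± 0.22 (adjusted p = 5.53e-06), and DTYMK, the thymidylate kinase, fell by 1.18 ± 0.12 (adjusted p = 1.4e-08).

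Of 20 further genes of the E2F and RB pathway, 2 rose and 9 fell in CHLA10, 3 rose and 2 fell in A673, and 5 rose and 7 fell in TC32 at 3 days, and at 20 days 4 rose and 4 fell in CHLA10 and 3 rose and 7 fell in A673. TFDP2, a dimer partner of E2F factors, rose by 0.56 ± 0.08 (adjusted p = 5.05e-06) in A673 at 3 days and rose by 1.23 ± 0.08 (adjusted p = 5.35e-12) at 20 days. E2F8, a repressive E2F, fell by 0.56 ± 0.17 (adjusted p = 0.012) and fell by 1.06 ± 0.17 (adjusted p = 1.6e-05) in the same comparisons and fell by 1.07 ± 0.18 (adjusted p = 3.26e-05) in CHLA10 at 3 days. CDK6, a G1 kinase that phosphorylates RB, fell by 2.80 ± 0.25 (adjusted p = 2.25e-09) in TC32, where CDC25A, a phosphatase that activates CDK2, fell by 1.24 ± 0.22 (adjusted p = 4.81e-05). Of 8 further chromatin genes, 3 fell in CHLA10, 1 rose in A673 and 4 fell in TC32 at 3 days, and 2 rose and 2 fell in CHLA10 and 1 rose and 5 fell in A673 at 20 days. CDCA7, which brings the remodeller HELLS to chromatin, fell by 0.60 ± 0.08 (adjusted p = 3.42e-06) in CHLA10 and fell by 0.51 ± 0.09 (adjusted p = 2.35e-05) in TC32 at 3 days. EZH2, the methyltransferase of histone H3 in Polycomb repression, fell by 0.39 ± 0.11 (adjusted p = 0.00903) and fell by 0.43 ± 0.11 (adjusted p = 0.00313) in the same comparisons, and fell by 0.58 ± 0.11 (adjusted p = 0.000198) in CHLA10 and fell by 0.60 ± 0.11 (adjusted p = 0.0001) in A673 at 20 days. HELLS itself fell by 0.57 ± 0.12 (adjusted p = 0.000378) in A673 at 20 days. Higher were the histone chaperones NASP, which rose by 0.49 ± 0.09 (adjusted p = 9.08e-05) in A673 at 3 days, and ASF1B, which rose by 0.90 ± 0.16 (adjusted p = 0.000103) in CHLA10 at 20 days.

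Mitosis genes, which peak later in the cycle, were set beside the 45. Of 25 mitosis genes, 5 fell and 0 rose in CHLA10 at 3 days (median -0.04, 5 at an unadjusted p under 0.05), 4 fell and 0 rose in A673 (median -0.07, 5 at an unadjusted p under 0.05), and 16 fell and 1 rose in TC32 (median -0.46). All tested genes in TC32 were lower in 22.8% and higher in 22.3%. At 20 days 5 rose and 1 fell in CHLA10 (median 0.10), where 16.5% of all tested genes were higher and 17.2% lower. Those 5 of 25 are a share near that background, and the 1 of 25 a smaller one. In A673 at 20 days 13 fell (median -0.29), beside 19.9% of all tested genes. Between CHLA10 vehicle groups 12 of the 25 fell (median -0.34), beside 7.06% of all tested genes. The 5 of 25 in CHLA10 and 4 of 25 in A673 at 3 days are shares near the background of 15.7% and 18.4%. HMMR, which binds hyaluronan and the spindle, fell by 0.90 ± 0.14 (adjusted p = 1.75e-05) in A673 at 3 days, the largest change of this list there, and MKI67, a coat protein of mitotic chromosomes, fell by 0.87 ± 0.23 (adjusted p = 0.00348) in A673 at 20 days. AURKA, a mitotic kinase, fell by 0.75 ± 0.12 (adjusted p = 1.79e-05) in CHLA10, fell by 0.68 ± 0.12 (adjusted p = 5.15e-05) in A673 and fell by 1.14 ± 0.12 (adjusted p = 2.51e-08) in TC32 at 3 days, and fell by 1.00 ± 0.12 (adjusted p = 1.28e-07) in A673 at 20 days. The medians of the 45 replication genes were lower than those of the mitosis genes at 3 days in CHLA10 (-0.33) and TC32 (-0.69), higher in A673 (0.01), and the difference between the 2 lists was not tested.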

How the data were processed

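The authors deposited raw counts, whole numbers for 33538 Ensembl genes in each of 30 libraries. FastQC, Trim Galore and STAR, then DESeq2, and the GRCh38 (hg38) build are named per the submitters' processing notes. Which tool counted the reads, with which strand setting, annotation and versions, is not given in the sources used here. All labels give batch 1. Column names matched sample titles. Lowest chi-square per gene between 2 libraries was 2.19, above counting noise, so each library counted as 1 replicate. Depth was 16083677 to 48949739 counts.

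Counts were fitted in R 4.3.3 with edgeR 4.0.16: filterByExpr by group, TMM factors, and a single robust quasi-likelihood fit of all 30 libraries (1 mean for each group), so that groups share 1 estimate of the spread. Each contrast was a glmQLFTest with Benjamini-Hochberg adjustment over the 16713 genes tested, and a gene was called (rose, fell) at adjusted p under 0.05. Log2 changes are given ± SE, which was derived from the F statistic. CPM used TMM-scaled library sizes, and CPM per kb used exon lengths of GENCODE 29, whose GRCh38 gene coordinates are printed. Tested were 5 treatment comparisons, vehicle at 20 against 3 days in 2 lines, and 6 differences between effects. The comparison of treated groups between times and the fit without the 4 most distant libraries were chosen after seeing the data. Simulated data in which 200 genes had known changes served to test the fit. The members, gene lists and tests were chosen with earlier results of these data known.

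Described by library are MCM2, CDC6, PCNA, E2F1, CCNE1, CCNE2, RRM2 and SLBP, the members with the largest and smallest mean absolute change in each role, and up to 4 called in both directions. CDC45, CDC7, PRIM1 and POLE were added after their values had been seen. From each other list, at most 2 genes a comparison are named, taken from the called ones with the largest changes. Alternatives were DESeq2 1.42.0, limma-voom (limma 3.58.1), other scaling (RLE, upper-quartile, library size alone), no filter or CPM above 1 in 3 libraries, libraries of the contrast only, a replicate block, adjusted p under 0.01, and each library left out. Replicate numbers come from the titles. They were checked by correlating deviations of same-numbered libraries from group means over genes, and only CHLA10 at 20 days had every pair over 0.1 (0.199, 0.15 and 0.361). There, replicates 1 and 2 also correlated across numbers (0.113 and 0.152), and replicate 3 did so negatively (-0.255 to -0.189). The numbers thus set only replicate 3 apart. Figures used matplotlib 3.10.9 in Python 3.11.15.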

Additional observations from a re-analysis of the deposited data

Results flagged for a closer look

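Of the 45 genes, those listed here had a drug effect that differed between 2 times or 2 lines by the test of the difference itself (edgeR interaction contrast, adjusted p under 0.05 over 16713 genes). Contrasts share vehicle and treated libraries, so a gene in several of them is not an independent finding. In CHLA10 the 20-day vehicle libraries lay below those of 3 days.

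In CHLA10 the effect at 20 days was higher than that at 3 days for 28 genes, and the values that follow are the 20-day minus the 3-day log2 change. Among licensing genes it was 0.88 for ORC1, 0.85 for CDC6, 0.65 for MCM2, 0.60 for MCM3, 0.71 for MCM4, 0.86 for MCM5, 0.66 for MCM6 and 0.61 for MCM7. The firing genes gave 0.77 for MCM10, 0.96 for CDC45 and 0.92 for GINS2. Polymerase genes had 0.47 for POLA1, 0.64 for POLA2 and 0.53 for POLD1. For the clamp group the values were 0.74 for PCNA, 0.45 for RFC2, 0.47 for RFC3 and 0.65 for FEN1. Nucleotide supply genes stood at 0.54 for RRM1, 0.72 for RRM2, 0.63 for TYMS and 0.75 for TK1. Regulators of G1/S were at 1.20 for CCNE2, 1.20 for E2F1 and 0.99 for E2F2. In the chromatin group it was 0.65 for CHAF1A, 0.58 for CHAF1B and 1.02 for UHRF1. Only 13 of the 28 were called in every fit that left out 1 library. They were ORC1, MCM2, MCM3, MCM5, MCM6, MCM7, CDC45, GINS2, POLA1, PCNA, E2F1, CHAF1A and CHAF1B.

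In A673 the 20-day effect was lower than the 3-day effect for 5 genes. The differences were -0.40 for MCM2, -0.69 for MCM10, -0.49 for DBF4, -0.39 for POLA1 and -0.44 for CHAF1A. Of these 5, 0 were called in every fit that left out 1 library.

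At 3 days the effect in A673 was higher than in CHLA10 for 12 genes, given as A673 minus CHLA10. The differences were 0.73 for ORC1, 0.38 for MCM2, 0.42 for MCM3, 0.61 for MCM5, 0.48 for MCM7, 0.64 for MCM10, 0.72 for GINS4, 0.49 for FEN1, 1.34 for CCNE2, 0.58 for E2F1, 0.45 for CHAF1A and 0.82 for UHRF1. Only 5 of the 12 (ORC1, MCM3, MCM5, GINS4 and CCNE2) were called in every fit that left out 1 library.

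The 3-day effect in TC32 minus that in CHLA10 was negative for 13 genes and positive for 2. The differences were -0.40 for CDT1, -0.49 for DBF4, -0.65 for GINS2, -0.82 for GINS3, 0.67 for GINS4, -0.72 for POLA2, 0.53 for POLE, -0.69 for POLE2, -0.48 for PCNA, -0.51 for RFC4, -0.70 for FEN1, -0.66 for RRM2, -0.60 for TYMS, -0.87 for CCNE1 and -0.47 for CHAF1A. Only 7 of the 15 (GINS2, GINS3, GINS4, POLA2, RFC4, FEN1 and TYMS) were called in every fit that left out 1 library.

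The 3-day effect in TC32 minus that in A673 was negative for 31 genes. Among licensing genes it was -0.78 for ORC1, -1.04 for CDC6, -0.36 for CDT1, -0.43 for MCM2, -0.55 for MCM3, -0.63 for MCM4, -0.84 for MCM5, -0.40 for MCM6 and -0.81 for MCM7. The firing genes gave -0.84 for MCM10, -0.56 for CDC45, -0.46 for DBF4, -0.92 for GINS2 and -1.14 for GINS3. Polymerase genes had -1.09 for POLA2 and -0.86 for POLE2. For the clamp group the values were -0.94 for PCNA, -0.58 for RFC2, -0.53 for RFC3, -0.66 for RFC4, -0.37 for RFC5, -1.18 for FEN1 and -0.63 for LIG1. Nucleotide supply genes stood at -0.88 for RRM2, -0.88 for TYMS and -0.94 for TK1. Regulators of G1/S were at -1.27 for CCNE1 and -1.03 for E2F1. In the chromatin group it was -0.93 for CHAF1A, -0.49 for CHAF1B and -0.92 for UHRF1. All but CDT1, CDC45, DBF4 and RFC5 were called in every fit that left out 1 library (27 of 31).

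At 20 days the effect in A673 minus that in CHLA10 was negative for 29 genes. Among licensing genes it was -0.65 for ORC1, -0.49 for CDT1, -0.67 for MCM2, -0.49 for MCM3, -0.66 for MCM4, -0.49 for MCM5, -0.70 for MCM6 and -0.47 for MCM7. The firing genes gave -0.82 for MCM10, -0.94 for CDC45, -0.61 for DBF4, -0.96 for GINS1 and -0.97 for GINS2. Polymerase genes had -0.78 for POLA1, -0.64 for POLA2, -0.75 for PRIM1 and -0.50 for POLD1. For the clamp group the values were -0.46 for RFC3, -0.40 for RFC4, -0.52 for RFC5 and -0.62 for FEN1. Nucleotide supply genes stood at -0.64 for RRM1, -0.93 for RRM2 and -0.63 for TYMS. Regulators of G1/S were at -1.05 for E2F1 and -1.54 for E2F2. In the chromatin group it was -0.64 for CHAF1A, -0.53 for CHAF1B and -0.76 for UHRF1. All but MCM7, RFC4 and UHRF1 were called in every fit that left out 1 library (26 of 29).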

How the results depend on the processing

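Among 675 gene-level results, 13095 values were recomputed under 41 other settings. Of these, 12058 kept their side of the threshold, 623 lost the call and 414 gained one. A change of direction was counted only for genes called in either fit, and there it was found 0 times. Genes not called in either fit could change direction and still count as kept. Of 582 counts of called genes, 114 moved by more than 1.5 times or between 0 and any other number, and the cause was not tested.

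At adjusted p under 0.01, higher genes numbered 1 in A673 and 0 in TC32 at 3 days, 11 in CHLA10 and 1 in A673 at 20 days, and 0 between A673 vehicle groups. For the differences this threshold left 10 higher in CHLA10 between times, 0 lower in A673 between times, 3 higher in A673 against CHLA10 at 3 days, and 6 lower and 1 higher in TC32 against CHLA10, and 1 lower between A673 treated groups. With RLE factors, upper-quartile factors, library size only, and CPM above 1 in 3 libraries, TC32 had 0 higher genes, and TC32 against CHLA10 had 1; DESeq2 also gave 0 higher in TC32. Library size alone gave 1 higher in A673 at 20 days, 11 lower in A673 between times and 11 lower between A673 treated groups, where upper-quartile factors gave 9. It moved the median of all genes by over 0.1 in A673 at 20 days, from 0.00 to -0.115. Without a filter 2 were lower in A673 between times, 7 higher in A673 against CHLA10 at 3 days and 6 lower in TC32 against CHLA10. Limma-voom gave 10 higher between A673 vehicle groups.

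Fitting only the libraries of a contrast gave 2 higher in CHLA10 at 3 days, 10 in CHLA10 and 1 in A673 at 20 days, 0 between A673 vehicle groups, 0 lower in A673 between times, 21 lower in TC32 against CHLA10 and 2 lower between A673 treated groups. Without the 4 most distant libraries, a fit added after the data had been seen, there were 1 higher in CHLA10 and 16 in A673 at 3 days, 6 higher in A673 at 20 days, 31 higher between A673 vehicle groups, 24 lower and 1 higher in A673 between times, 28 higher in A673 against CHLA10 and 24 lower in TC32 against CHLA10 at 3 days, 2 lower between CHLA10 treated groups, and 7 lower and 6 higher between A673 treated groups.

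With a replicate block, 1 gene was higher in CHLA10 and 6 in A673 at 3 days, 0 between A673 vehicle groups, and 2 lower between A673 treated groups. In CHLA10 at 20 days the block gave 24 higher and added CDC6 and MCM10 but ended no call. There the numbers set only replicate 3 apart and did not pair replicates 1 and 2. In the other comparisons the numbers were taken only as names.

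Leaving out 1 library at a time gave the following ranges. Higher genes ran from 1 to 9 in A673 and 0 to 1 in TC32 at 3 days, 10 to 25 in CHLA10 and 1 to 3 in A673 at 20 days, 0 to 23 between A673 vehicle groups, and 1 to 5 between A673 treated groups, where 2 to 5 were lower. For the differences they ran from 13 to 33 higher in CHLA10 between times, 0 to 17 lower and 0 to 1 higher in A673 between times, 5 to 20 higher in A673 against CHLA10 at 3 days, 7 to 15 lower and 1 to 2 higher in TC32 against CHLA10, and 0 to 1 higher in A673 against CHLA10 at 20 days. CCNE2, the lowest of the 45 per kb in 3-day vehicle, had the largest mean SE of the 45.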
